A study of Homo sapiens with 12 samples.

Results

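The genes described here encode 10 plasma membrane amino acid transporters: SLC3A2, SLC7A1, SLC7A5, SLC7A6, SLC7A8, SLC7A11, SLC1A4, SLC1A5, SLC38A1 and SLC38A2. They were picked by gene symbol from a table of 16383 genes, around SLC7A5, which had been seen raised with palbociclib. All 10 were in the table. Values that compare palbociclib with DMSO, and every palbociclib value of SLC7A5, are therefore descriptions. Where calls from them are counted, nothing is read from the count, or the count without SLC7A5 stands beside it.

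RNA was sequenced in 12 poly(A) libraries of wild-type IMR90, a human lung fibroblast cell line in wide use, in 4 groups of 3 libraries. The proliferating group was labelled as untreated and received neither irradiation nor DMSO, and no harvest day was given for it. The other groups were labelled senescent. They had received 20 Gy of ionizing radiation over 10 min and were harvested on day 11. Of these, one group was given DMSO, the solvent. Another was given palbociclib, an inhibitor of the cell cycle kinases CDK4 and CDK6, at 2 µM on days 4, 6, 8 and 10. The last was given ruxolitinib, an inhibitor of the Janus kinases that signal from cytokine receptors, at 2 µM on the same days. Irradiation, DMSO and time therefore cannot be told apart in the comparison of DMSO with proliferating cells. All groups come from a single cell line.

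Cells take up amino acids through carriers that divide the work. SLC3A2, also called CD98 heavy chain, carries no amino acid itself but brings its light chain partners to the cell surface. The light chains SLC7A5, SLC7A6, SLC7A8 and SLC7A11 each bind it through a disulphide bond and exchange an amino acid inside the cell for another outside. SLC7A5 (LAT1) brings in leucine and other large neutral amino acids, which the growth-controlling kinase complex mTORC1 senses. SLC7A11 (xCT) brings in cystine for glutathione synthesis in exchange for glutamate. SLC7A1 carries arginine and lysine. SLC1A4 and SLC1A5 exchange small neutral amino acids such as alanine and serine, and SLC1A5 also exchanges glutamine. SLC38A1 and SLC38A2 take up glutamine and other neutral amino acids together with sodium. When amino acids run short, the transcription factor ATF4 is known to act on many of these genes through C/EBP-ATF response elements, and MYC, which binds E-boxes, is a known activator of several.

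Of the 10 genes, 9 had at least 1 promoter window in the RefSeq table of GRCh38.p14, 18 windows in all, each running from 250 bases before to 50 bases after a transcription start. SLC7A11 had no window there, so its promoter was not searched. The windows were searched on both strands for TGATGNAA, a core of the C/EBP-ATF response element, and for CACGTG, the E-box. The strings can share the letters TG, but no matches of the 10 genes overlapped. TGATGNAA occurred in 1270 of 35116 RefSeq windows (3.62%) and in 1217 of 27305 genes (4.46%). Among the transporters it occurred in 5 of 18 windows, which belong to 5 genes. The 30 bases around each match are shown because ATF4 is known to act through such elements, with the match in capitals. All are written 5′ to 3′ on the minus strand of the chromosome.
SLC7A1: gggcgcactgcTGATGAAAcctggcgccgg
SLC3A2: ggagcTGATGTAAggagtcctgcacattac
SLC1A4: ccggctggagaTGATGCAAacgggagccgc
SLC1A5: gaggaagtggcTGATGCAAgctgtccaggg
SLC38A1: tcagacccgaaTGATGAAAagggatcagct

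These stretches lie at chr13:29595663-29595692 for SLC7A1, chr11:62881719-62881748 for SLC3A2, chr2:64989381-64989410 for SLC1A4, chr19:46784893-46784922 for SLC1A5 and chr12:46266502-46266531 for SLC38A1. The match read in the direction of the gene for SLC7A1, SLC1A5 and SLC38A1 and against it for SLC3A2 and SLC1A4. It stood 97 bases before 1 of the 3 starts listed for SLC1A5 and within 37 bases of a start for the other 4 genes. These starts of SLC1A5, SLC3A2, SLC1A4 and SLC38A1 lie inside the gene as annotated in GENCODE v44. That of SLC7A1 lies at the outer end of its gene. The matches of SLC1A4 and SLC1A5 held the same 8 letters, as did those of SLC7A1 and SLC38A1. CACGTG occurred in 2548 RefSeq windows (7.26%) and in 2396 genes (8.77%), and in 3 of the 18 windows here. The matches of SLC7A5 and SLC1A5 are shown because their genes had the highest levels per length after SLC38A2 in proliferating cells.
SLC7A5: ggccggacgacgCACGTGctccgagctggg
SLC1A5: ggcgggagtggtCACGTGgacaggacgggg

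They lie at chr16:87869620-87869649, 130 bases before the start of SLC7A5, and at chr19:46787326-46787355, 50 bases before a start of SLC1A5. That start of SLC1A5 also lies inside the gene. The third gene with CACGTG was SLC7A8. A match describes letters only. No binding was measured.

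Whole reads recovered from the deposited normalized counts summed to between 14106799 and 21762412 per library over the listed genes, and 37827 to 62082 of them fell on the 10 transporters. CDKN1A, which encodes the cell cycle inhibitor p21, averaged 3389 normalized counts in proliferating and 29150 in irradiated DMSO cells, while the lamin gene LMNB1 averaged 3911 and 153. The proliferation gene MKI67 averaged 13062 in proliferating, 1011 in DMSO, 82.5 in palbociclib and 700 in ruxolitinib cells. The 10 fibroblast markers, COL1A1 among them, summed to 822420 to 854897 in proliferating libraries, 408919 to 419590 in DMSO, 651681 to 683887 in palbociclib and 515852 to 520021 in ruxolitinib libraries. The collagen genes COL1A1 and COL1A2 were the largest parts of this sum, and not every marker moved with it. From proliferating to DMSO cells THY1 (8752 and 9900) and DCN (11887 and 13247) averaged higher, and the rest lower. With palbociclib only PDGFRA averaged lower than with DMSO (3368 against 4123). Epithelial markers (EPCAM, CDH1, KRT5, SFTPC) summed to at most 42.1 and endothelial ones (PECAM1, CDH5, VWF) to at most 50.4 in any library. Of the immune markers, PTPRC reached at most 9.90, CD3E 2.71 and LYZ 6.57 normalized counts in any library. Replicate libraries differed by more than counting noise, with a chi-square per gene of 1.977 to 25.138 where counting alone gives about 1. The largest values involved palbociclib library A120 (25.138 and 13.63) and proliferating library A126 (17.085 and 11.915). Library A126 was the lowest of its group for 7 of the 10 transporters and the highest for SLC3A2 and SLC1A5. Library A120 was likewise the lowest of its group for 7 and the highest for SLC3A2, SLC1A5 and SLC7A8. Results that rest on these libraries are given without them. If all libraries were given an equal total, the log2 difference of the median gene would move by 0.23 for DMSO against proliferating cells and by -0.23 for palbociclib against DMSO, so differences below are relative to the authors' scaling. In a bulk library, fewer cells of a kind and less RNA per cell cannot be told apart.

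**Figure D1:**
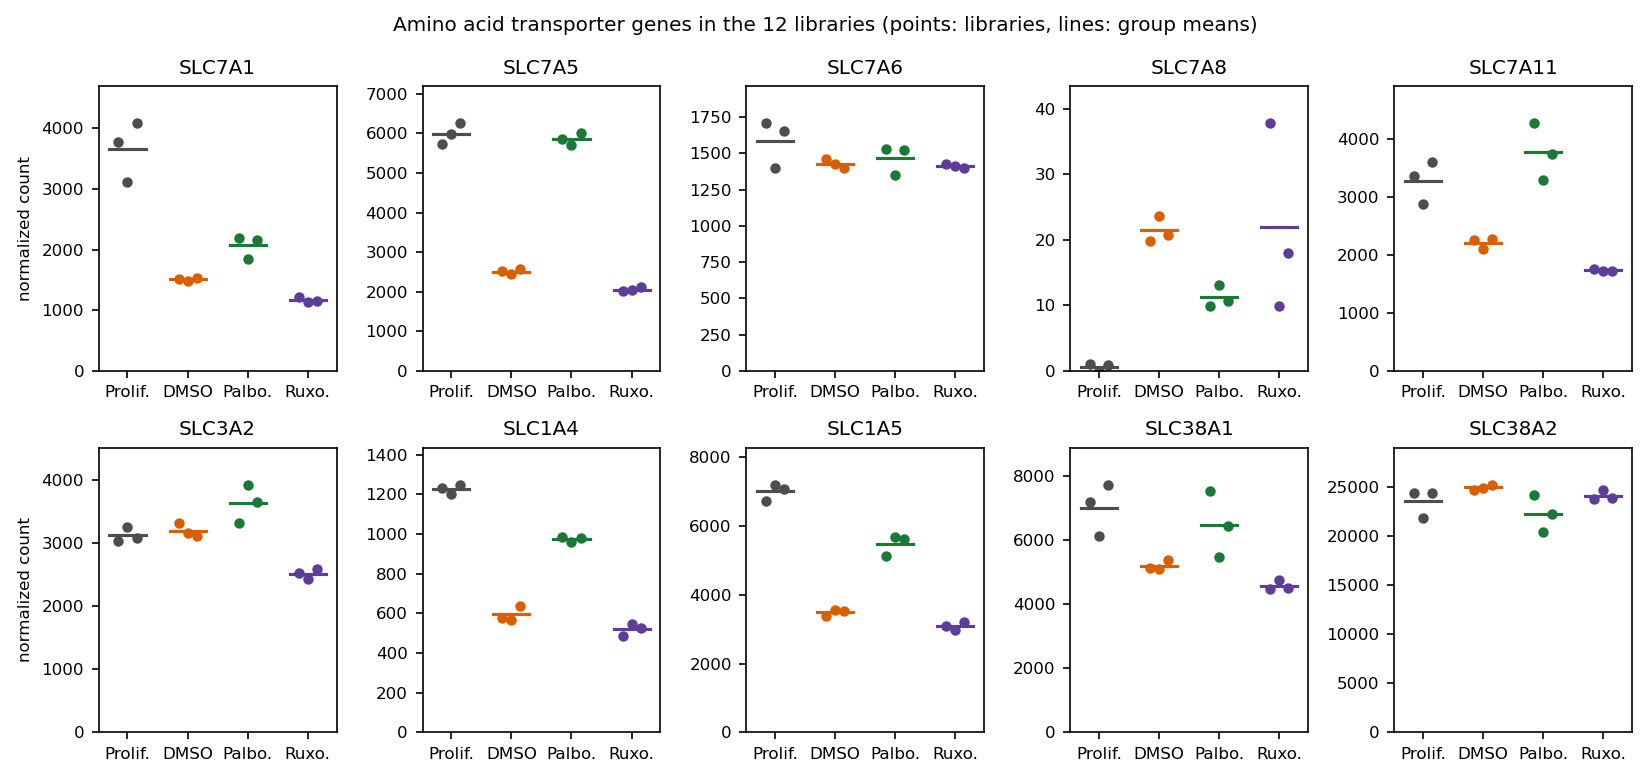
Normalized counts (vertical axes, from 0) of the 10 transporter genes in each of the 12 libraries, by group on the horizontal axis, with 1 point per library and a line at each group mean. SLC7A5, SLC1A4 and SLC1A5 were high in proliferating and palbociclib libraries and low with DMSO or ruxolitinib, SLC38A2 stood between 20385 and 25233 in all 12, and SLC7A8 stayed under 40.

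Irradiated DMSO cells held less mRNA of most of these transporters than proliferating cells. SLC7A1, SLC7A5, SLC1A4 and SLC1A5 stood at 0.416 to 0.498 of their proliferating level, SLC7A11 at 0.677 and SLC38A1 at 0.745. The heavy chain SLC3A2, SLC7A6 and SLC38A2 did not pass the test, and SLC7A8, counted in few reads, stood higher. By limma with Benjamini-Hochberg adjustment over 11242 tested genes, 6 of the 10 were lower and 1 was higher at an adjusted p under 0.05, where 39.3% of all tested genes were lower and 33.0% higher. The 1 higher call was SLC7A8, which passed the filter on low values only through the irradiated groups where it is high, so that call supports nothing. The median log2 difference was -0.49 over the 10 genes, SLC7A8 included, and -0.05 over all tested genes. Without A126, 7 were lower and 1 higher, SLC7A6 joining the lower ones (-0.235, limma adjusted p = 0.00289). At the same total per library, 5 were lower and 3 higher, SLC3A2 and SLC38A2 joining the higher ones at log2 differences of 0.263 and 0.316, and the call for SLC38A1 was lost (-0.196, limma adjusted p = 0.063). At that scaling 2970 of all tested genes were lower and 5273 higher.

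With palbociclib most of the transporters stood above DMSO. The log2 difference was 1.22 for SLC7A5, 0.76 for SLC7A11, 0.71 for SLC1A4, 0.65 for SLC1A5, 0.45 for SLC7A1, 0.31 for SLC38A1 and 0.18 for SLC3A2. It was 0.03 for SLC7A6, -0.17 for SLC38A2 and -0.88 for SLC7A8. Of the 10, 7 were called higher and 1 lower, where 26.0% and 22.3% of all tested genes were. The genes were picked on this contrast, so nothing is read from that count. The palbociclib libraries all lay above the DMSO libraries for 6 genes and below for 2, where 29.1% and 25.7% of all tested genes did so. The difference for SLC3A2 turned to -0.046 when libraries were scaled to the same total, and that for SLC7A6 to -0.193. Without A120 the differences of SLC3A2 (0.123) and SLC38A2 (-0.105) were no longer called, which left 6 called higher. SLC38A2, the lower call, was also lost without A116, A117, A118 or A121.

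Several transporters were lower with ruxolitinib, at the same dose and days, than with DMSO. SLC7A1 fell by 0.37 on the log2 scale, SLC7A5 by 0.29, SLC7A11 by 0.35 and SLC3A2 by 0.35. By limma, 4 of the 10 were lower, where 3.42% of all tested genes were lower and 1.10% higher. Limma called 0 higher, as did edgeR and DESeq2, and 0 were higher at an unadjusted p under 0.05. The ruxolitinib libraries all lay below the DMSO libraries for 8 of the 10 genes, where 17.0% of all tested genes did so. Leaving out any of the 6 libraries reduced the count of lower genes from 4 to 2. SLC7A5 and SLC3A2 stayed lower under all 17 alternatives, with limma, edgeR or DESeq2 adjusted p of at most 0.0168 and 0.0239. SLC7A1 and SLC7A11 lost the call whenever a library was left out, with limma adjusted p up to 0.0954 and 0.136.

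Set directly against ruxolitinib, palbociclib cells held more mRNA of 7 of the 10 genes, where 22.8% of all tested genes were higher and 17.6% lower by limma. Without SLC7A5, which was picked on its palbociclib level, 6 of 9 were higher. The 7 were SLC7A1, SLC7A5, SLC7A11, SLC3A2, SLC1A4, SLC1A5 and SLC38A1. Their palbociclib libraries all lay above all ruxolitinib libraries, as did those of the 6 without SLC7A5, where 29.0% of all tested genes did so. Limma called 0 of the 10 lower, with 0 at an unadjusted p under 0.05. EdgeR and DESeq2 also called 0 lower, each with 2 at an unadjusted p under 0.05. The count of higher genes was 7 without any library in turn, A120 included, while SLC38A2 was called lower without A119 (-0.18, limma adjusted p = 0.0235) and at the same total per library (-0.32).

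Against proliferating cells, palbociclib left some transporters lower and others near or above that level. SLC7A1, SLC1A4 and SLC1A5 were lower, by 0.82, 0.33 and 0.36 on the log2 scale, and SLC7A11, SLC3A2 and SLC7A8 were higher. That makes 3 of 10 in each direction by limma, where 38.6% of all tested genes were lower and 35.2% higher. Without SLC7A5 and SLC7A8, whose tests are not used here, 3 of 8 were lower and 2 higher. SLC7A5 overlapped between these groups, with a log2 difference of -0.03 (SE 0.048). The count of lower genes rose from 3 to 5 without A126 or without A119, and the count of higher genes fell from 3 to 2 without either. SLC38A1 was called lower in both cases, with SLC7A6 without A126 and SLC38A2 without A119. The higher call of SLC7A11 was near the threshold (0.20, limma adjusted p = 0.0491) and was the call lost (limma adjusted p = 0.24 without A126 and 0.248 without A119). It was lost in 8 of 17 alternatives, and the count of higher genes was also 2 without A125 or without A121.

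**Figure D2:**
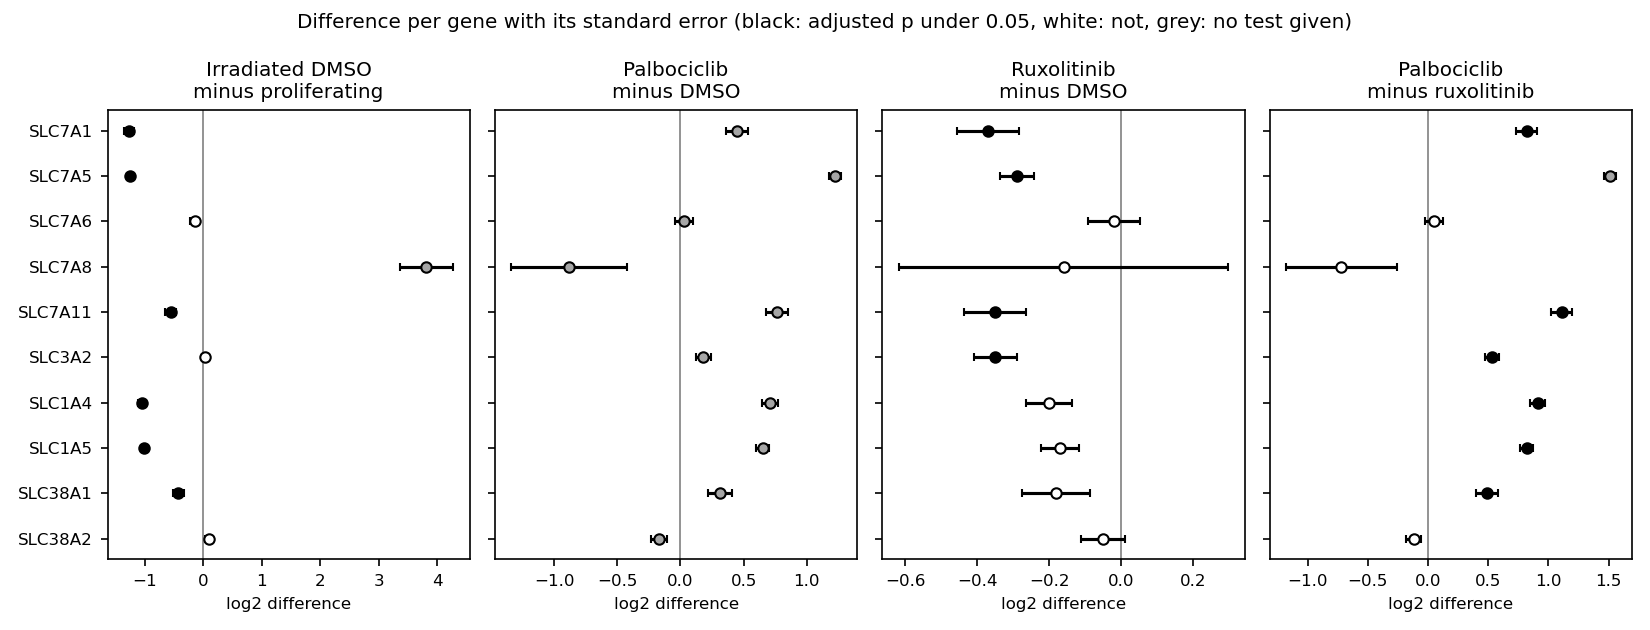
Log2 difference of normalized count + 1 (horizontal axes) for each transporter gene (vertical axis) in 4 comparisons, with the standard error as bars. Black points had a limma adjusted p under 0.05, white points did not, and grey points have no test because palbociclib values picked the genes or, for SLC7A8 against proliferating cells, because of the filter on low values. The horizontal scales differ between panels, and SLC7A8, counted in at most 49 reads per library, has the widest bars.

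The heavy chain comes first by role. SLC3A2 (Entrez 6520, chr11:62856004-62888880, plus strand, 6392 bases of exon in GENCODE v44 on GRCh38) stood at 3027, 3264 and 3085 normalized counts in proliferating libraries, 3320, 3154 and 3120 with DMSO, 3319, 3928 and 3650 with palbociclib, and 2531, 2428 and 2593 with ruxolitinib. The ruxolitinib libraries were the lowest 3 of the 12, and the proliferating and DMSO libraries overlapped. The log2 difference between DMSO and proliferating cells was 0.03 (SE 0.06, limma adjusted p = 0.629). Ruxolitinib cells were lower than DMSO cells by 0.35 (SE 0.06, limma adjusted p = 0.00263), and palbociclib cells were 0.53 above ruxolitinib cells (limma adjusted p = 6.18e-06). Palbociclib cells also stood 0.21 above proliferating cells (limma adjusted p = 0.00465).

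SLC7A5 (Entrez 8140, chr16:87830023-87869507, minus strand, 4764 bases of exon) is the leucine carrier of the set. It stood at 5727, 5991 and 6260 normalized counts in proliferating libraries, 2513, 2448 and 2568 with DMSO, 5853, 5697 and 6007 with palbociclib, and 2016, 2042 and 2110 with ruxolitinib. Proliferating and palbociclib libraries overlapped, and every one of them was above every DMSO and ruxolitinib library. For palbociclib this is a description, because the gene was picked on that level. From proliferating to DMSO cells it fell by 1.25 on the log2 scale (SE 0.048, limma adjusted p = 2.65e-12). Ruxolitinib cells were lower than DMSO cells by a further 0.29 (SE 0.048, limma adjusted p = 0.00174). Group means were 5993 ± 267 (SD, n = 3) in proliferating, 2510 ± 60.1 in DMSO, 5852 ± 155 in palbociclib and 2056 ± 48.3 in ruxolitinib cells.

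SLC7A11 (Entrez 23657, chr4:138164097-138242349, minus strand) carries cystine. Its normalized counts were 3361, 2871 and 3597 in proliferating libraries, 2250, 2100 and 2273 with DMSO, 4273, 3295 and 3737 with palbociclib, and 1758, 1719 and 1725 with ruxolitinib. The palbociclib libraries spread the most, from A120 at 3295 to A119 at 4273, and overlapped the proliferating ones. DMSO cells were lower than proliferating cells by 0.56 (SE 0.087, limma adjusted p = 2.74e-05), and palbociclib cells were 1.11 above ruxolitinib cells (limma adjusted p = 1.05e-07). Of its exon bases, 8.97% are overlapped by another gene, chiefly the antisense SLC7A11-AS1, and whether strand was used in counting is not given in the sources used here.

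SLC7A6 (Entrez 9057, chr16:68264516-68301823, plus strand) exchanges arginine for neutral amino acids. It ranged from 1348 to 1709 normalized counts over the 12 libraries, and its group means ran from 1414 ± 14.8 (SD, n = 3) with ruxolitinib to 1588 ± 167 in proliferating cells. At the authors' scaling, no comparison passed the limma test with all libraries. The smallest limma adjusted p there was 0.0799, for DMSO against proliferating cells, at a log2 difference of -0.15 (SE 0.072). Scaling mattered for this gene. At the same total per library the difference of palbociclib from DMSO, a description, was -0.19. Other genes overlap 55.6% of its exon bases, mostly SLC7A6OS on the opposite strand, so its level is uncertain.

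SLC7A8 (Entrez 23428, chr14:23125295-23183674, minus strand), a second leucine-type exchanger known mainly from epithelia, was nearly absent from proliferating cells, with 1, 0 and 1 reads per library. It had 20, 20 and 18 reads with DMSO, 9, 12 and 12 with palbociclib, and 49, 11 and 20 with ruxolitinib. Against a floor of 3 reads per library, DMSO cells were at least 6.92-fold, palbociclib cells at least 3.63-fold and ruxolitinib cells at least 7.07-fold higher than proliferating cells. The ruxolitinib bound was 4.51-fold without library A122, the one with 49 reads. The mean in proliferating cells was 0.663 normalized counts and the gene passed the filter through its irradiated libraries, so no test against proliferating cells is given. The ruxolitinib libraries overlapped the DMSO ones, and the sign of their difference turned without library A123. Epithelial markers summed to 9.52 to 35.5 in proliferating, 32.4 to 38.6 in DMSO, 30.7 to 42.1 in palbociclib and 21.6 to 28.5 in ruxolitinib libraries. Endothelial markers summed to 5.55 to 8.57, 21.3 to 40.5, 21 to 33.9 and 28 to 50.4 in the same order of groups. The part of cells with these markers in the SLC7A8 values was not tested.

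SLC7A1 (Entrez 6541, chr13:29509414-29595688, minus strand), the arginine and lysine carrier, had 3770, 3111 and 4087 normalized counts in proliferating libraries, 1519, 1482 and 1530 with DMSO, 2198, 1846 and 2164 with palbociclib, and 1216, 1140 and 1150 with ruxolitinib. No group overlapped another, in the order proliferating, palbociclib, DMSO, ruxolitinib. It fell by 1.27 from proliferating to DMSO cells (SE 0.086, limma adjusted p = 2.43e-09). Palbociclib cells were 0.82 above ruxolitinib cells (limma adjusted p = 2.51e-06) and lower than proliferating cells by 0.82 (limma adjusted p = 3.75e-07).

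SLC1A5 (Entrez 6510, chr19:46774883-46788594, minus strand), the glutamine exchanger ASCT2, had 6727, 7198 and 7075 normalized counts in proliferating libraries, 3370, 3568 and 3520 with DMSO, 5119, 5667 and 5610 with palbociclib, and 3083, 2980 and 3216 with ruxolitinib. SLC1A4 (Entrez 6509, chr2:64988477-65023865, plus strand), its relative ASCT1, had 1232, 1203 and 1249, then 576, 569 and 639, then 987, 959 and 980, and 485, 545 and 528 normalized counts in the same order of groups. For both, the 4 groups did not overlap and followed the order proliferating, palbociclib, DMSO, ruxolitinib. From proliferating to DMSO cells SLC1A5 fell by 1.01 (SE 0.053, limma adjusted p = 1.11e-10) and SLC1A4 by 1.05 (SE 0.064, limma adjusted p = 6.66e-10). Palbociclib cells exceeded ruxolitinib cells by 0.82 for SLC1A5 (limma adjusted p = 1.17e-08) and 0.91 for SLC1A4 (limma adjusted p = 3.26e-08). The differences of ruxolitinib from DMSO, -0.17 for SLC1A5 and -0.20 for SLC1A4, did not pass (limma adjusted p = 0.086 and 0.109). An antisense gene overlaps 23.8% of the SLC1A5 exon bases.

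SLC38A1 (Entrez 81539, chr12:46183063-46270017) and SLC38A2 (Entrez 54407, chr12:46358188-46372773) take up glutamine with sodium and lie on the minus strand 88171 bases apart. SLC38A1 had 7194, 6129 and 7740 normalized counts in proliferating libraries, 5124, 5115 and 5373 with DMSO, 7532, 5488 and 6463 with palbociclib, and 4477, 4776 and 4515 with ruxolitinib. The palbociclib libraries overlapped the proliferating ones, and A120 stood just above the DMSO range. SLC38A1 fell by 0.43 from proliferating to DMSO cells (SE 0.095, limma adjusted p = 0.000867), and palbociclib cells were 0.49 above ruxolitinib cells (limma adjusted p = 0.000817).

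SLC38A2 behaved differently from its neighbour. It had 24333, 21860 and 24366 normalized counts in proliferating libraries, 24707, 24895 and 25233 with DMSO, 24193, 20385 and 22223 with palbociclib, and 23813, 24672 and 23870 with ruxolitinib. The DMSO libraries were above all others, and the lowest values of the 12 were A120 and A126. At the authors' scaling, no comparison outside the palbociclib and DMSO pair passed the limma test with all libraries. The log2 differences there were 0.09 for DMSO against proliferating cells (SE 0.062, limma adjusted p = 0.217), -0.05 for ruxolitinib against DMSO (limma adjusted p = 0.775) and -0.12 for palbociclib against ruxolitinib (limma adjusted p = 0.14). The first of these depended on the processing. DMSO cells were called higher than proliferating cells at the same total per library (0.316, limma adjusted p = 0.000148). EdgeR (0.146, adjusted p = 0.0381) and DESeq2 (0.147, adjusted p = 0.0339) called them higher too. Palbociclib cells were called lower than ruxolitinib cells at the same total.

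Levels of different genes can be set side by side only per length. Per kilobase of exon, SLC38A2 was the highest of the 10 in all 4 groups, at 3613 ± 221 normalized counts per kb (SD, n = 3) in proliferating, 3832 ± 41 in DMSO, 3421 ± 293 in palbociclib and 3705 ± 73.8 in ruxolitinib cells. SLC1A5 was next in every group, with 2101 ± 73.3, 1046 ± 30.9, 1640 ± 90.4 and 928 ± 35.4 per kb. SLC7A5 was the third in proliferating and palbociclib cells, at 1258 ± 56 and 1228 ± 32.5 per kb. With DMSO its 527 ± 12.6 per kb overlapped SLC38A1 at 520 ± 14.6, which in turn overlapped SLC3A2 at 500 ± 16.8. With ruxolitinib SLC7A5, at 432 ± 10.1 per kb, lay below SLC38A1 at 458 ± 16.3 and above SLC3A2 at 394 ± 13.1. SLC1A4, at 74.8 to 177 per kb, and SLC7A8, at 0.111 to 3.66 per kb, were the lowest by group mean in all groups. Lengths are those of all annotated exons of a gene, and the transcripts these cells use may be shorter.

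**Figure D3:**
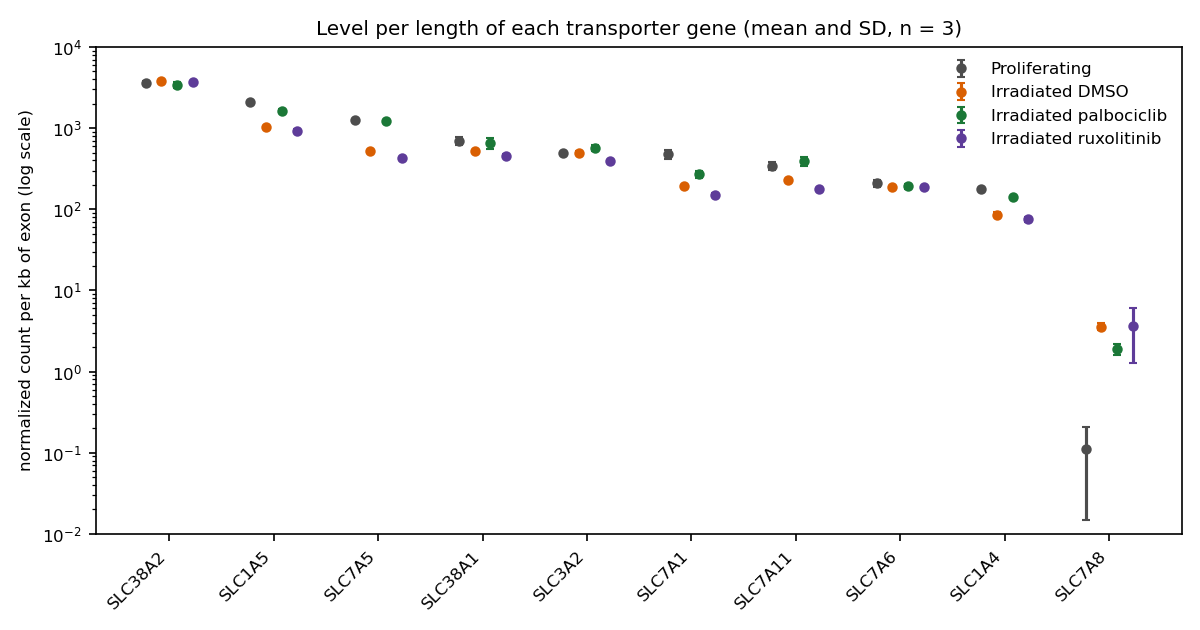
Normalized counts per kilobase of annotated exon (vertical axis, log scale) for the 10 transporter genes, ordered by their proliferating level, with the mean and SD of 3 libraries per group. SLC38A2 and SLC1A5 lead in all 4 groups, while SLC7A5 drops from 1258 in proliferating cells to 527 with DMSO and 432 with ruxolitinib and stands at 1228 with palbociclib.

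Ratios within a library do not depend on how libraries are scaled to each other. Per kb, SLC7A5 mRNA was 2.46 to 2.72 times that of its heavy chain partner SLC3A2 in proliferating libraries and 1.95 to 2.37 times with palbociclib. The ratio was 1.02 to 1.10 with DMSO and 1.07 to 1.13 with ruxolitinib. All 6 libraries of the first groups lay above all 6 of the others. SLC7A5 was picked on its palbociclib level. Its palbociclib ratios, and the palbociclib sums below that hold it, are therefore descriptions. The light chains SLC7A5, SLC7A6, SLC7A8 and SLC7A11 summed to 3.41 to 3.95 times SLC3A2 in proliferating, 1.84 to 1.97 in DMSO, 2.79 to 3.61 in palbociclib and 1.99 to 2.09 in ruxolitinib libraries. The ranges of DMSO and ruxolitinib did not overlap for this sum. These ratios are mRNA levels per length and say nothing of how the proteins pair.

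SLC1A4 to SLC1A5 was the ratio that moved least. It ran from 0.0803 to 0.0879 in proliferating, 0.0766 to 0.0872 in DMSO, 0.0812 to 0.0926 in palbociclib and 0.0754 to 0.0877 in ruxolitinib libraries, so all 4 groups overlapped. SLC38A1 to SLC38A2 was 0.182 to 0.206 in proliferating and 0.175 to 0.202 in palbociclib libraries, against 0.134 to 0.138 with DMSO and 0.122 to 0.126 with ruxolitinib. SLC38A2 made up 37.5% to 39.8% of the summed level per kb of the 10 genes in proliferating, 53.6% to 53.9% in DMSO, 38.7% to 42.1% in palbociclib and 56.2% to 57.8% in ruxolitinib libraries. The other 9 genes summed to 5750 ± 215 per kb (SD, n = 3) in proliferating, 3296 ± 34 in DMSO, 5081 ± 110 in palbociclib and 2808 ± 42.9 in ruxolitinib cells. The palbociclib sum and the palbociclib share of SLC38A2 include SLC7A5 and are descriptions.

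**Figure D4:**
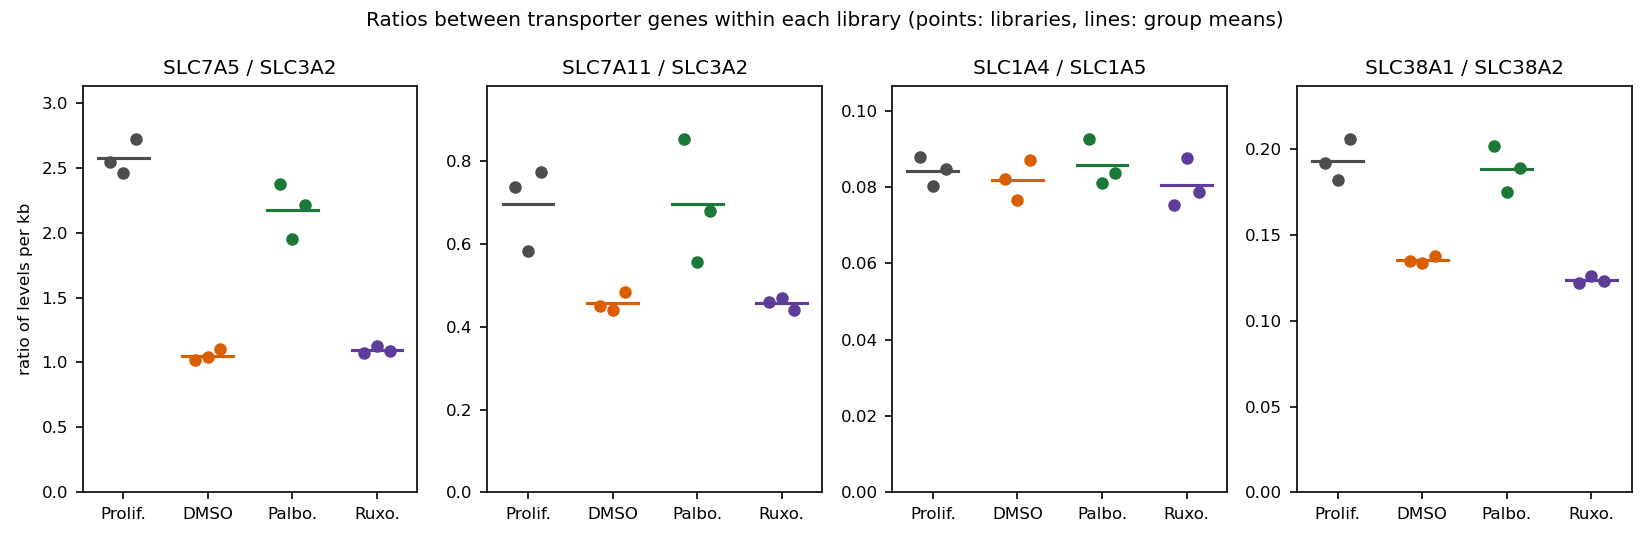
Ratios between transporter genes within each library (vertical axes, levels per kb, from 0) by group, with 1 point per library and a line at each group mean. SLC7A5 to SLC3A2 is 1.95 or more in proliferating and palbociclib libraries and 1.13 or less in the others, whereas SLC1A4 to SLC1A5 lies between 0.0754 and 0.0926 in all 12. The palbociclib values of SLC7A5 are descriptions.

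The genes whose pattern was most like that of SLC7A5 were found among 9249 tested genes with a mean of at least 100. Likeness was the root mean square difference of log2(normalized count + 1) over the 12 libraries, each gene centred on its own mean. The palbociclib values on which SLC7A5 was picked enter this measure. The distances and ranks are therefore descriptions, and nothing is read from them. The nearest 5 were CNN1 (0.138), OXTR (0.140), ACTA2 (0.154), MTHFD2 (0.161) and ACTG2 (0.177). CNN1, ACTA2 and ACTG2 encode proteins of the contractile apparatus, OXTR the oxytocin receptor, and MTHFD2 a mitochondrial folate enzyme. ACTA2 averaged 15437 normalized counts in proliferating, 5076 in DMSO, 12569 in palbociclib and 4419 in ruxolitinib cells, and MTHFD2, which is also in the amino acid response list below, averaged 3725, 1581, 2933 and 1324. Of the other transporters, SLC1A4 ranked 9, SLC1A5 15, SLC7A11 26 and SLC7A1 43, while SLC38A1 ranked 298, SLC3A2 1543, SLC7A6 3404 and SLC38A2 5670.

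Other genes of amino acid handling were read from lists, of which the largest holds 30 further amino acid transporters. In the table were 26 of them, and 17 passed the filter on low values. Between DMSO and proliferating cells 8 were higher and 7 lower by limma, where 33.0% and 39.3% of all tested genes were. The list median log2 difference was 0.12. SLC6A15, a carrier of branched-chain amino acids, rose from 67.8 ± 4.15 to 398 ± 15.1 normalized counts, and the glutamate carrier SLC1A1 rose from 117 ± 16.4 to 379 ± 9.55. The glycine carrier SLC6A9 fell from 572 ± 35 to 231 ± 31.6. Between palbociclib and ruxolitinib 5 were higher and 5 lower, where 22.8% and 17.6% of all tested genes were. SLC6A15 stood at -1.95 and SLC6A9 at 1.36 on the log2 scale. Ruxolitinib cells had 2 of the 17 lower than DMSO, SLC6A9 (-0.62, limma adjusted p = 0.00269) and SLC38A5 (-0.60, limma adjusted p = 0.000176). Of all tested genes, 3.42% were lower. SLC6A9 thus had the same order of groups as SLC7A1, at 385 ± 38.2 with palbociclib and 150 ± 13.4 with ruxolitinib.

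The amino acid response list holds ATF4, kinases upstream of it and known targets, 27 of which were tested. The kinase EIF2AK4 and the target ALDH1L2 were not in the table. EIF2AK3 was therefore the only upstream kinase tested. By limma, 19 were lower and 6 higher in DMSO than in proliferating cells, where 39.3% and 33.0% of all tested genes were. The median was -0.73. PHGDH, the first enzyme of serine synthesis, fell from 3510 ± 294 to 621 ± 42.1 and ASNS, asparagine synthetase, from 2610 ± 199 to 687 ± 33.3. The stress factors ATF3, at 95.4 ± 7.27 and 1152 ± 15.8, and DDIT3, at 195 ± 3.95 and 749 ± 18.2, rose instead. ATF4 mRNA itself fell by 0.46 (limma adjusted p = 2.06e-05), to 4367 ± 192 from 6001 ± 455. In palbociclib cells ATF4 stood at 6360 ± 611, ATF3 at 198 ± 3.73 and PSAT1, a serine synthesis enzyme, at 3347 ± 37.1 against 948 ± 53.5 with DMSO. These values are descriptions, as above.

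Against ruxolitinib, palbociclib cells had 20 of the 27 response genes higher and 3 lower, where 22.8% and 17.6% of all tested genes were. The median was 0.69. PSAT1 was 2.13 higher on the log2 scale, PCK2 1.68 and ATF4 0.66 (limma adjusted p = 2.23e-06). CBS, at 1.71, rested on widely spread palbociclib libraries (227 ± 149). Ruxolitinib cells had 9 of the 27 lower than DMSO cells, where 3.42% of all tested genes were. ATF3 stood at -0.79, TRIB3 at -0.60 and ASNS at -0.40 (limma adjusted p = 0.00218 for ASNS). ATF4 mRNA did not pass there (-0.12, limma adjusted p = 0.426). Between palbociclib and proliferating cells 9 were higher and 11 lower, where 35.2% and 38.6% of all tested genes were. Nothing is read from these counts.

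Cytosolic aminoacyl-tRNA synthetases load amino acids onto tRNA, and 19 of 20 were tested. Between DMSO and proliferating cells 17 were lower, with a median of -0.45, and the other 2 did not pass. Of all tested genes, 39.3% were lower. The leucine enzyme LARS1 fell from 3274 ± 57.2 to 1771 ± 75.9 and the methionine enzyme MARS1 from 4699 ± 122 to 2606 ± 4.26. Palbociclib cells had 16 higher than ruxolitinib cells, where 22.8% of all tested genes were. GARS1 stood at 9864 ± 121 against 5312 ± 71.6. The count of higher synthetases dropped to 9 with libraries scaled to the same total. That of all tested genes dropped from 2561 to 847. Ruxolitinib cells had WARS1 (-0.43) and TARS1 (-0.16) lower than DMSO cells, where 3.42% of all tested genes were lower. TARS1 lost the call when any of the 6 libraries was left out, with limma adjusted p up to 0.224.

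Genes of the NRF2 and glutathione list, which use the cystine that SLC7A11 brings in, did not move one way. Of 16 tested, 4 were higher and 6 lower in DMSO than in proliferating cells, where 33.0% and 39.3% of all tested genes were. HMOX1 rose from 190 ± 17.1 to 487 ± 11.7 and NQO1 fell from 2991 ± 30.7 to 1538 ± 16. With the same total per library, 7 were higher, and the count of all tested genes that were higher rose from 3714 to 5273. Palbociclib cells had 5 higher and 2 lower than ruxolitinib cells, where 22.8% and 17.6% of all tested genes were. TXNRD1, thioredoxin reductase, stood at 0.54 and HMOX1 at -1.34. With the same total, 2 were higher and 7 lower, beside 847 higher and 4531 lower among all 11242 tested genes. Of 19 tested genes of mTORC1 amino acid sensing, 6 were higher and 4 lower in DMSO than in proliferating cells. Of all tested genes, 33.0% were higher and 39.3% lower. At the same total 14 were higher and 1 lower, beside 5273 higher and 2970 lower among all 11242 tested genes. SESN1 and SESN2, which encode sestrins that hold mTORC1 back, rose by 1.18 and 0.82, and RHEB, its activator, fell by 0.79. Between palbociclib and ruxolitinib 2 were higher and 2 lower, where 22.8% and 17.6% of all tested genes were. SESN1 was lower by 0.92 and RHEB 0.26 higher. At the same total the RHEB difference was 0.063 and did not pass (limma adjusted p = 0.367). For palbociclib against DMSO the list medians, again as descriptions, were 0.54 for amino acid response genes, 0.36 for synthetases, 0.03 for NRF2 and glutathione genes, 0.03 for mTORC1 sensing genes and -0.05 for other amino acid transporters, beside 0.02 for all tested genes.

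**Figure D5:**
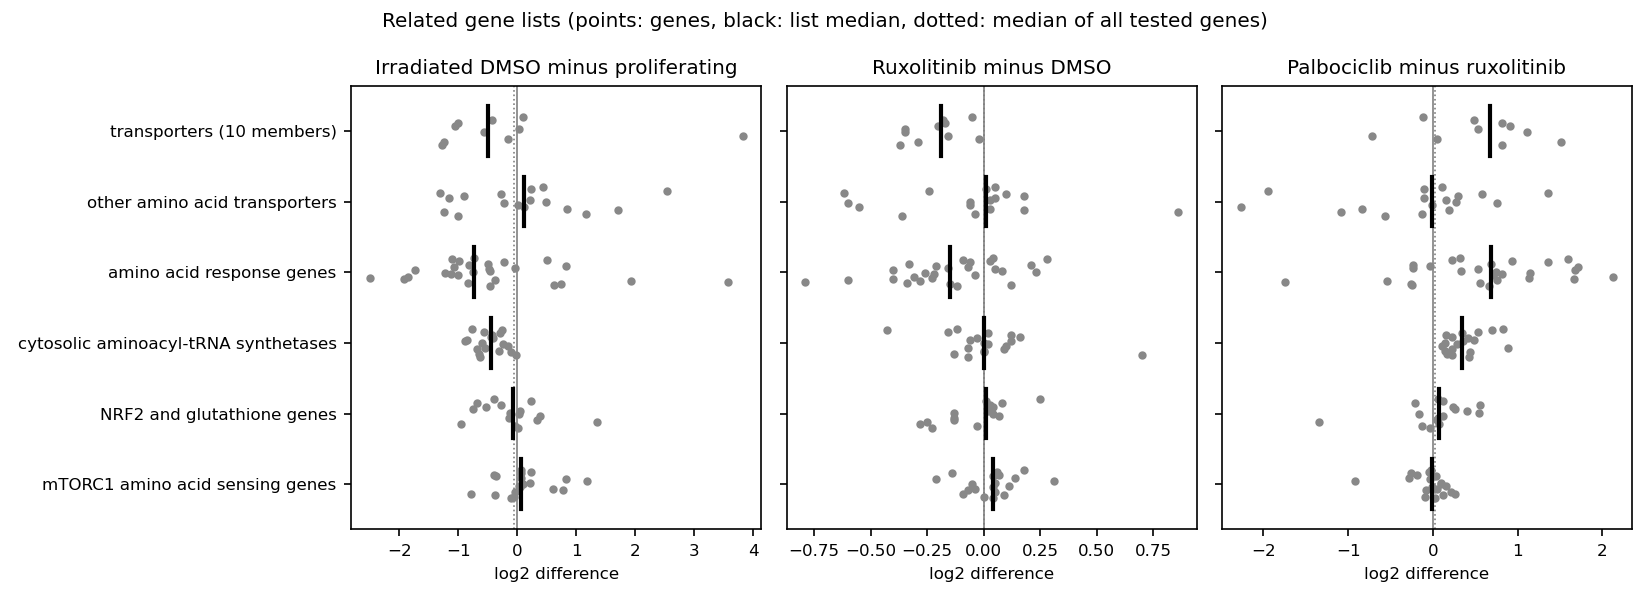
Log2 difference (horizontal axes) of every tested gene of the 10 transporters and 5 related lists in 3 comparisons, with 1 grey point per gene, a black bar at the list median and a dotted line at the median of all tested genes. The transporters and the amino acid response genes have medians of -0.49 and -0.73 for DMSO against proliferating cells and 0.67 and 0.69 for palbociclib against ruxolitinib. The transporter median of 0.67 includes SLC7A5, picked on its palbociclib level, and is a description. That of -0.49 includes SLC7A8, whose test is not used. Nothing is read from how near the medians of the lists lie. The horizontal scales differ between panels.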

How the data were processed

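The authors deposited 1 table of gene counts normalized per library (unit: signal). The submitters' processing notes name Trimmomatic 0.38.1, HISAT2 2.2.1, featureCounts 2.0.3, FastQC 0.74, MultiQC, DESeq2 2.11.40.8, hg38 and GRCh38. The annotation is not given in the sources used here. Each value above 0 was a whole multiple of the worth of 1 read (160380 of 160380 values, 100%, tolerance 0.01). The table ends at Entrez gene 140467, so 4794 of 20052 protein-coding genes (23.9%) were not analysed here.

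Tests used limma 3.58.1 (R 4.3.3) on log2(normalized count + 1), a scale that understates the change of low genes, with 4 group means over all 12 libraries, a mean trend and Benjamini-Hochberg adjustment over 11242 genes with a mean of at least 10. Calls have an adjusted p under 0.05. The recovered reads were also tested with edgeR 4.0.16 and DESeq2 1.42.0. In the comparison of DMSO with proliferating cells edgeR called 6 of the 10 transporters lower and 2 higher. The limma step was tested on simulated data. Nothing says that libraries came from separate cultures, so p-values measure the spread between these samples, which may be technical. The transporters and lists were chosen with earlier results of these data known. Named from each list were ATF4 and up to 4 called genes per comparison with the largest difference and a mean of at least 100, plus the 5 genes most like SLC7A5 and CDKN1A, LMNB1 and MKI67. SLC7A6OS and SLC7A11-AS1 are named for their overlap. The summed level of the immune marker list is not reported here.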

Additional observations from a re-analysis of the deposited data

How the results depend on the processing

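Leaving aside palbociclib against DMSO, SLC7A5 with palbociclib and SLC7A8 against proliferating cells, there were 21 calls for single transporters. Of these, 17 held under every alternative run (pseudocounts of 0.1 and 5, other filters on low values, 3 other scalings, no mean trend, fitting the 2 groups alone, edgeR, DESeq2 and each library left out), and 4 were lost under at least 1. No paired analysis was possible because the columns carry no replicate number. For DMSO against proliferating cells, the count of higher transporters went from 1 to 0 at a mean of at least 50 (SLC7A8 was then not tested), to 3 at the same total, upper quartile or quantiles, and to 2 with edgeR or DESeq2. At the same total the count of all tested genes that were higher also rose, from 3714 to 5273. The count lower with palbociclib than with DMSO went from 1 to 0 with no filter or no trend and to 2 at the same total. The count lower with ruxolitinib than with DMSO went from 4 to 2 without a trend and to 7 with only the 2 groups fitted. The count lower with palbociclib than with ruxolitinib went from 0 to 1 at each other scaling. With each library left out, these counts ranged over 1 to 1, 0 to 1, 2 to 2 and 0 to 1, and the count lower than proliferating ranged over 6 to 7 for DMSO and 3 to 5 for palbociclib. The count higher ranged over 6 to 7 for palbociclib against DMSO, 7 to 7 against ruxolitinib, 2 to 3 against proliferating cells and 0 to 0 for ruxolitinib against DMSO. Signs turned for SLC7A6 at the same total, upper quartile and quantiles, to 0.084, 0.008 and 0.009 for DMSO against proliferating cells, to -0.193, -0.027 and -0.036 for palbociclib against DMSO, and to -0.151, -0.027 and -0.029 for palbociclib against ruxolitinib. SLC3A2 turned to -0.046 for palbociclib against DMSO at the same total. SLC7A8 turned to 0.075 (edgeR), 0.053 (DESeq2) and, with each library left out, ranged from -0.634 to 0.281 (without A123) for ruxolitinib against DMSO. For palbociclib against proliferating cells, SLC7A5 turned to 0.058 (upper quartile), 0.004 (quantiles), 0.003 (edgeR) and 0.006 (DESeq2), and SLC38A2 to 0.011 (upper quartile). The cause was not tested. Depth limits SLC7A8 most, at 0 to 49 reads per library.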
